A study of Mus musculus with 2 samples.

Results

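Microglia with few transcripts of disease-associated and interferon-induced genes made up 1583 nuclei, 892 from PS19 mice and 691 from PZKO mice, out of 22389 nuclei deposited from the hippocampus. PS19 mice carry a human P301S tau transgene and wild-type *Zbp1*, and PZKO mice carry the same transgene with *Zbp1* deleted. Both groups were males 9 months old, pooled into 1 single-nucleus RNA sequencing library per genotype (10x Genomics 3′ chemistry), with no label for the animal in the counts. The paper describes pooled hippocampi and also separate processing of single animals, so each library was treated as 1 sample. Neither non-transgenic mice nor a second library were analysed here, so the effect of the tau transgene itself could not be compared and no difference between genotypes has a replicate check. All values below are therefore descriptions of 2 libraries, and the 95% intervals beside them cover counting error only. The tau transgene is driven by the mouse prion promoter, which is active mainly in neurons, while the *Zbp1* deletion was carried by every cell of PZKO mice.

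Microglia are the resident macrophages of the brain parenchyma. In the undisturbed state they sense ATP, fractalkine and colony stimulating factor through P2RY12, CX3CR1 and CSF1R, and TGF-β signalling together with the factors PU.1, SALL1 and MEF2C maintains this homeostatic identity. Near pathology, many microglia shift to a disease-associated state (DAM), in which homeostatic receptors decline and genes of lipid handling and lysosomes increase, and others enter an interferon-responsive state. The protein made from *Zbp1* binds left-handed double helices of DNA and RNA inside cells and can start necroptosis or apoptosis through kinases of the RIP family, and interferon raises its level.

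The nuclei were chosen by their own counts of unique molecular identifiers (UMIs). A nucleus passed the filter with 600 or more UMIs, 300 or more genes and a mitochondrial share of 5% or less, which 10466 PS19 and 10128 PZKO nuclei met. It then needed a summed level of *Inpp5d*, *Csf1r*, *Cx3cr1*, *Dock8*, *Runx1*, *Ly86* and *Cd84* of at least 10 per 10000 UMIs with low levels of oligodendrocyte, astrocyte and border macrophage genes, which left 1066 PS19 and 841 PZKO microglia. Those with fewer than 3 UMIs of the DAM genes *Itgax*, *Cst7*, *Gpnmb* and *Dkk2*, and fewer than 3 UMIs of the interferon-induced genes *Ifit2*, *Ifit3*, *Rsad2*, *Cxcl10*, *Oasl1*, *Iigp1* and *Isg15*, were kept. The microglia set aside were 157 PS19 and 115 PZKO nuclei at or above the DAM limit and 24 and 45 nuclei at or above the interferon limit, of which 7 and 10 were above both. Because these genes chose the nuclei, their levels are given only as description. Just inside the DAM limit, with 2 UMIs, lay 83 PS19 and 72 PZKO microglia, and just outside it, with 3 UMIs, lay 43 and 37. For the interferon limit these numbers were 24 and 28 nuclei inside and 12 and 9 outside. At the microglial limit, 77 PS19 and 46 PZKO members had a summed level between 10 and 20, while 214 and 124 nuclei fell between 5 and 10. The median summed level of the members was 80.9 in PS19 and 85.4 in PZKO, far from that limit, and it was 0 in the other nuclei.

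The member nuclei were shallow compared with the rest of the hippocampus. Their median was 3091 UMIs in PS19 and 3882 in PZKO, against 7322 and 11074 in nuclei outside the microglial gate, and their summed UMIs were 3346210 and 3293944. The median mitochondrial share was 0.619% and 0.546%. The libraries shared 47 barcodes, and 0 of these belonged to member nuclei of both. Transcripts of other cells were present in most nuclei, since the neuronal gene *Syt1* had UMIs in 60.7% of PS19 and 72.6% of PZKO members, and reached higher levels in a minority. Limits set after seeing the data marked 93 PS19 nuclei (10.4%) and 71 PZKO nuclei (10.3%) with a neuronal sum (*Snap25*, *Syt1*, *Rbfox3*, *Celf4*, *Grin2b*) of at least 30 per 10000 UMIs, T and B cell markers of at least 10 per 10000 UMIs, or at least 10000 UMIs in all. These mixed nuclei held 22.0% and 22.7% of the member UMIs, and results that rest on them are given with and without them.

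The labelled cell type and the markers of microglia went together. *Inpp5d*, the SHIP1 phosphatase of myeloid cells, had at least 1 UMI in 92.0% of PS19 and 92.8% of PZKO members, against 4.20% and 4.93% of nuclei outside the gate. *Csf1r*, the receptor for CSF1 and IL-34, was detected in 80.4% and 84.4% (outside 4.93% and 5.59%). *Cx3cr1*, the fractalkine receptor, was detected in 81.5% and 84.4% (outside 11.1% and 11.8%). *Ly86*, an MD-1 protein that pairs with a Toll-like receptor homologue, was detected in 85.2% and 86.4% (outside 6.13% and 5.23%). All 4 of these genes belonged to the gate. The fifth marker, the purinergic receptor *P2ry12* on chr3:59216272-59262871 (mm10, minus strand), did not, and it had UMIs in 71.2% and 77.9% of members against 13.8% and 15.6% outside. With each nucleus thinned to 2000 UMIs, *P2ry12* was found in 62.8% and 68.4% of members and in 3.60% and 3.53% of the others, so the gap was wider at equal depth.

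**Figure D1:**
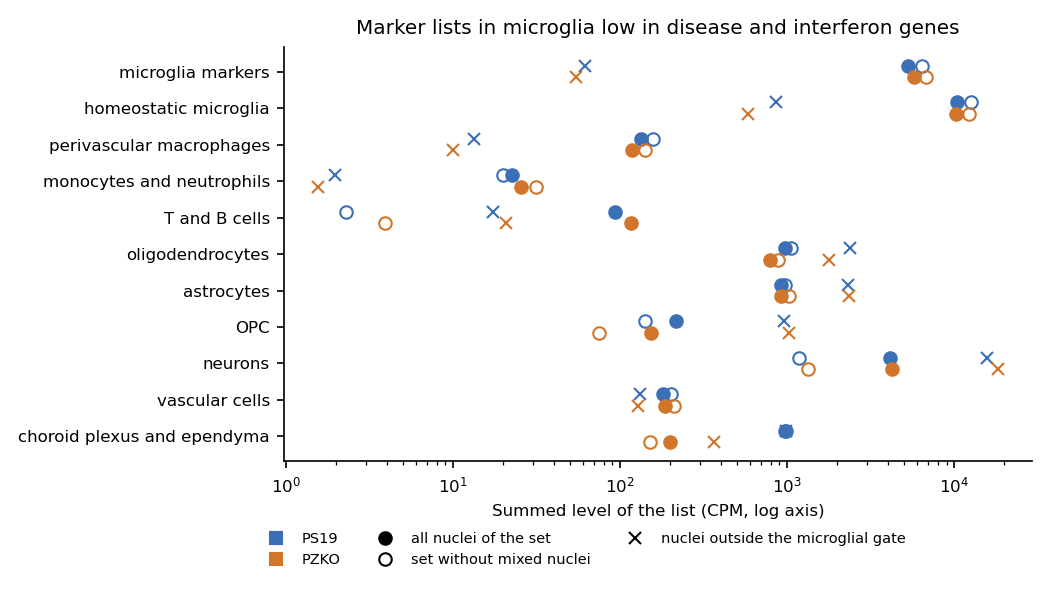
Summed level of each marker list in CPM (log axis), in all 1583 member nuclei (filled), in members without mixed nuclei (open) and in nuclei outside the microglial gate (crosses), for PS19 (blue) and PZKO (orange). The 5 microglia markers reach 5264 CPM in PS19 and 5766 CPM in PZKO members and 61.3 and 54.5 CPM outside, and the T and B cell markers drop from 93.2 and 116 CPM to 2.30 and 3.93 CPM without the mixed nuclei.

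Transcripts of other cell types were present at lower levels. The neuronal list summed to 4156 CPM in PS19 and 4251 CPM in PZKO members, and to 1183 and 1334 CPM without the mixed nuclei, against 15698 and 18305 CPM in nuclei outside the gate. Oligodendrocyte markers stood at 971 and 790 CPM, astrocyte markers at 914 and 924 CPM, and markers of oligodendrocyte precursors at 217 and 153 CPM. Border macrophage markers were at 133 and 118 CPM, vascular markers at 180 and 186 CPM, and monocyte and neutrophil markers at 22.4 and 25.5 CPM. The choroid plexus and ependyma list differed between the libraries, at 975 CPM in PS19 and 200 CPM in PZKO members. Nuclei outside the gate showed the same order, at 979 and 364 CPM. *Ttr* (transthyretin, the secreted product of the choroid plexus) made up 788 of the 975 CPM in PS19 and 96.2 of the 200 CPM in PZKO. It had UMIs in 91.4% of PS19 and 35.9% of PZKO members and in 93.4% and 37.8% of the nuclei outside. At 2000 UMIs per nucleus, *Ttr* was found in 74.2% of PS19 and 18.9% of PZKO members and in 51.2% and 10.4% of the nuclei outside. The order of the libraries was thus the same inside and outside the gate, and the source of the *Ttr* transcripts was not tested.

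Promoter sequence was examined for the genes on which the identity and the comparisons turn, in the 250 bases before each RefSeq start (GRCm38.p6, both strands searched). The E-box CACGTG, the core of the sites read by TFEB and related factors, was in 6.02% of all 32851 promoters. It was in 2 of 20 promoters of homeostatic genes and in 8 of 31 promoters of lysosomal genes (25.8%). The 2 homeostatic genes that held it were *P2ry12* and *Siglech*, and *Ctsd* is the lysosomal gene of this kind with the widest difference described below. The purine-rich letters GAGGAA, a core bound by PU.1 and other ETS factors, were in 23.3% of all promoters. They were in 5 of 20 promoters of homeostatic genes and in 12 of 26 promoters of further DAM genes (46.2%). *Inpp5d* is shown as an example of a microglial gate gene that held them (another was *Runx1*), and the gate genes were not counted in full. The core of an interferon-stimulated response element, 2 copies of GAAA with any 2 bases between them, was in 2.98% of all promoters. It was in 0 of 20 promoters of homeostatic genes and in 1 of 26 promoters of further DAM genes. Further interferon-stimulated genes held it in 15 of 32 promoters (46.9%), of which 2 belonged to *Slfn8*. *Ifi211* is shown as the first of these genes in the ranking of members against interferon-responsive microglia below. Matches are given as letters in these windows, not as sites in use, and are printed 5′ to 3′ on the gene's strand with the match in capitals.
P2ry12, chr3:59263168-59263235, minus strand: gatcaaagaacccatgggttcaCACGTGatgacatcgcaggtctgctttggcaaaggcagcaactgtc
Siglech, chr7:55768088-55768173, plus strand: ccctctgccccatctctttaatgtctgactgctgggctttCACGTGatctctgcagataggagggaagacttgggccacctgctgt
Ctsd, chr7:142388027-142388077, minus strand: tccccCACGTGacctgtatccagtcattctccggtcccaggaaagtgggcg
Inpp5d, chr1:87620252-87620311, plus strand: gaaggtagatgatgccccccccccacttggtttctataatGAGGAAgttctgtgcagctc
Ifi211, chr1:173913047-173913123, minus strand: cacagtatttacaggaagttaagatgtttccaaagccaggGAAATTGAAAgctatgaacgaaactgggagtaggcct

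*Zbp1* itself (chr2:173206612-173218923, minus strand) was rare in these nuclei. Its UMIs were 31 in 30 of the 892 PS19 members (9.26 CPM) and 7 in 7 of the 691 PZKO members (2.13 CPM), which gave a log2 ratio of PZKO over PS19 of -2.12 (-3.55 to -0.91). In nuclei outside the gate the ratio was -1.75 (-2.46 to -1.07). The deleted segment is not given in the sources used here, and 3′ reads need not fall in it. Microglia above the DAM limit did not show this order, at 10.8 CPM from 7 UMIs in PS19 and 12.9 CPM from 11 UMIs in PZKO, with a ratio of 0.26 (-1.24 to 1.87). Microglia above the interferon limit had the highest levels, 104 CPM from 13 UMIs in PS19 and 34.5 CPM from 8 UMIs in PZKO. Thinned to 2000 UMIs, 1.53% of PS19 members (11 nuclei) and 0.831% of PZKO members (5 nuclei) had a *Zbp1* UMI. With the gates applied only after thinning, the ratio over the nuclei that then passed was 0.35, so the lower level in the library labelled PZKO did not hold under that choice. That set also takes in nuclei above the interferon limit before thinning, the group with the highest *Zbp1* levels. The value is given without an interval, and its cause was not tested.

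The share of microglia that were members depended on the limits, and it was 49.0% in PS19 and 51.2% in PZKO where both gates had to be at 0 UMIs. With the limits used here, members were 83.7% of microglia in PS19 (81.3% to 85.8%) and 82.2% in PZKO (79.4% to 84.7%), intervals that overlap. After thinning to 2000 UMIs, which lets more nuclei pass below both limits and left out 179 PS19 and 90 PZKO microglia as too shallow, the shares were 90.4% (88.3% to 92.3%) and 91.3% (89.1% to 93.3%). On the same thinned nuclei, 8.79% of PS19 (7.01% to 10.9%) and 5.46% of PZKO microglia (3.95% to 7.33%) were at or above the DAM limit, and 0.789% (0.318% to 1.62%) and 3.33% (2.17% to 4.88%) were at or above the interferon limit. Before thinning, the DAM shares were closer, at 14.7% (12.7% to 17.0%) and 13.7% (11.4% to 16.2%). The interferon shares were then 2.25% (1.45% to 3.33%) and 5.35% (3.93% to 7.09%). Of all nuclei that passed the filter, members were 8.52% in PS19 (7.99% to 9.07%) and 6.82% in PZKO (6.34% to 7.33%), and 7.63% and 6.12% without the mixed nuclei. The share of all microglia was also higher in PS19, at 10.2% against 8.30%, and fewer microglia cannot be told apart from more recovered nuclei of other types.

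To compare the genotypes, UMIs were summed over the members of a library and scaled to the same total (CPM, 1000000 UMIs per library). A gene counts as past the fold where its log2 ratio of PZKO over PS19 was at least 0.5 in size, and 11471 genes reached the required 50 UMIs in the 2 libraries together. Of these genes, 10.5% were lower in PZKO and 4.08% were higher, and the median of all genes was -0.04. Leaving out the mixed nuclei gave 9.34% lower and 4.46% higher among 10236 genes. In nuclei outside the gate, the same 11471 genes gave 6.92% lower and 0.872% higher, with a median of -0.09. The share of past-fold genes that were lower was 72.0%, and it was 59.5% with edgeR TMM scaling and 55.5% with a microglial limit of 20 per 10000 UMIs. The lists described next were read against these shares.

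Homeostatic genes were at similar or slightly higher levels in PZKO members. Of 21 homeostatic genes with enough UMIs, 1 was past the fold upwards and 1 downwards, and the median ratio was 0.10 (0.09 without the mixed nuclei, and -0.31 in nuclei outside the gate). This list includes the gate genes *Cx3cr1* and *Csf1r*, and without them the median over the other 19 genes was also 0.10. *P2ry12* had 2188 UMIs in PS19 and 2532 in PZKO, which is 654 and 769 CPM and a ratio of 0.23 (0.15 to 0.32), and the difference was the same without the mixed nuclei. *Siglech*, a sialic acid receptor, had 365 CPM in PS19 and 423 CPM in PZKO, a ratio of 0.21. *Tmem119*, a membrane protein typical of microglia, had 53.5 and 66.2 CPM, a ratio of 0.31, and *Selplg*, the P-selectin ligand, 294 and 335 CPM, a ratio of 0.19. The gene past the fold upwards was *Adgrg1*, an adhesion receptor also called GPR56, with 26.0 and 37.3 CPM and a ratio of 0.52 (0.11 to 0.94). Downwards it was *Cst3*, the secreted protease inhibitor cystatin C, with 1313 and 804 CPM and a ratio of -0.71 (-0.78 to -0.64), but *Cst3* was lower in PZKO outside the gate as well (-1.16). *Olfml3*, a secreted protein, was at -0.19 (-0.43 to 0.05). Among the gate genes, which are description only, *Inpp5d* was at 0.17, *Runx1* at 0.19, *Csf1r* at 0.12, *Ly86* at 0.12, *Dock8* at 0.07, *Cx3cr1* at 0.00 and *Cd84* at -0.10.

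Factors that set microglial identity behaved alike. The 17 transcription factors tested had a median of 0.15 (0.13 without the gate gene *Runx1*), with 1 past the fold in each direction. *Sall1*, which represses other macrophage programmes, had 443 UMIs in PS19 (132 CPM) and 580 in PZKO (176 CPM), a ratio of 0.41 (0.23 to 0.59), and was at -0.26 outside the gate. *Mef2c* had 1510 and 1841 CPM, a ratio of 0.29, and *Mef2a* 1439 and 1557 CPM, a ratio of 0.11. *Smad3*, a transducer of TGF-β signals, was the factor past the fold upwards, with 137 CPM in PS19 and 203 CPM in PZKO and a ratio of 0.57 (0.39 to 0.74). Without the mixed nuclei *Smad3* stood at 0.48, just under the fold, and outside the gate at 0.36. *Cebpa*, with 42 and 28 UMIs, was at -0.56 with an interval that includes 0 (-1.31 to 0.16), and *Bhlhe41*, a repressor of the clock that also maintains tissue macrophages, was at -0.49 (-0.69 to -0.29). In the TGF-β list of 20 genes the median was 0.09, with *Tgfbr1* at 2285 and 2449 CPM (0.10), *Tgfbr2* at 0.07, the co-repressor *Ski* at 0.28 and the latent TGF-β activator *Itgb8* at -0.29 (-0.79 to 0.19). *Smad3* was the only member of that list past the fold.

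DAM genes outside the gate were mostly lower in PZKO members. Of 29 with enough UMIs, 16 were past the fold downwards and 0 upwards, 26 had a ratio below 0, and the median was -0.57 (-0.55 without the mixed nuclei). Both the choice of low-DAM nuclei and this list were made with these data known, and the list median was -0.76 in nuclei outside the gate, so a lower level was not particular to the members. *Apoe* (chr7:19696109-19699188, minus strand), the main brain carrier of lipids, had 7386 UMIs in PS19 (2207 CPM) and 3447 in PZKO (1046 CPM), a ratio of -1.08 (-1.14 to -1.02). It was at -0.99 outside the gate, and its detection in members (94.8% and 91.0%) was close to that outside (93.1% and 90.2%). Thinned to 2000 UMIs, *Apoe* was found in 86.3% and 75.2% of members against 54.9% and 41.5% of other nuclei. *Spp1* (chr5:104435118-104441050, plus strand), the secreted protein osteopontin, had 254 UMIs in 110 PS19 nuclei and 54 UMIs in 40 PZKO nuclei (75.9 and 16.4 CPM), a ratio of -2.21 (-2.66 to -1.78). Without the mixed nuclei the *Spp1* ratio was -2.39, and outside the gate it was -1.51. *Lyz2*, the macrophage lysozyme, had 357 and 125 UMIs (-1.49, -1.80 to -1.19), and stood at -1.80 outside. The tetraspanin gene *Cd63* had 610 and 304 UMIs (-0.98), and *Ch25h*, which makes the sterol that dampens inflammasomes, 54 and 26 UMIs (-1.03).

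Other DAM genes differed less, and 21 of the 29 intervals lay below 0 and 2 above. *Trem2*, the lipid receptor that DAM depend on, had 231 CPM in PS19 and 208 CPM in PZKO, a ratio of -0.16 (-0.31 to -0.0054), and its adaptor *Tyrobp* was at -0.21 (-0.42 to -0.0032). The phosphatidylserine receptor *Axl* was at 0.03, the lipase *Lpl* at -0.13 and the growth factor *Csf1* at -0.06, with intervals that include 0. The tetraspanin gene *Cd9* was at -0.30 and the growth factor gene *Igf1* at -0.32. *Fth1*, the ferritin heavy chain, was at -0.47 (-0.56 to -0.39), just under the fold. The 3 genes above 0 were *Axl*, then *Cadm1*, an adhesion molecule shared with neurons, with 856 and 1105 CPM (0.37, 0.30 to 0.44), and *Ank*, a pyrophosphate exporter, at 0.19 (0.07 to 0.31). The 4 gate genes were below 0, at -0.48 for *Itgax*, -0.91 for *Cst7*, -0.75 for *Gpnmb* and -1.27 for *Dkk2*, from 214, 99, 41 and 27 UMIs in PS19, and these values describe the selection. The plot of ratios by list shows the DAM list set apart from the homeostatic list.

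**Figure D2:**
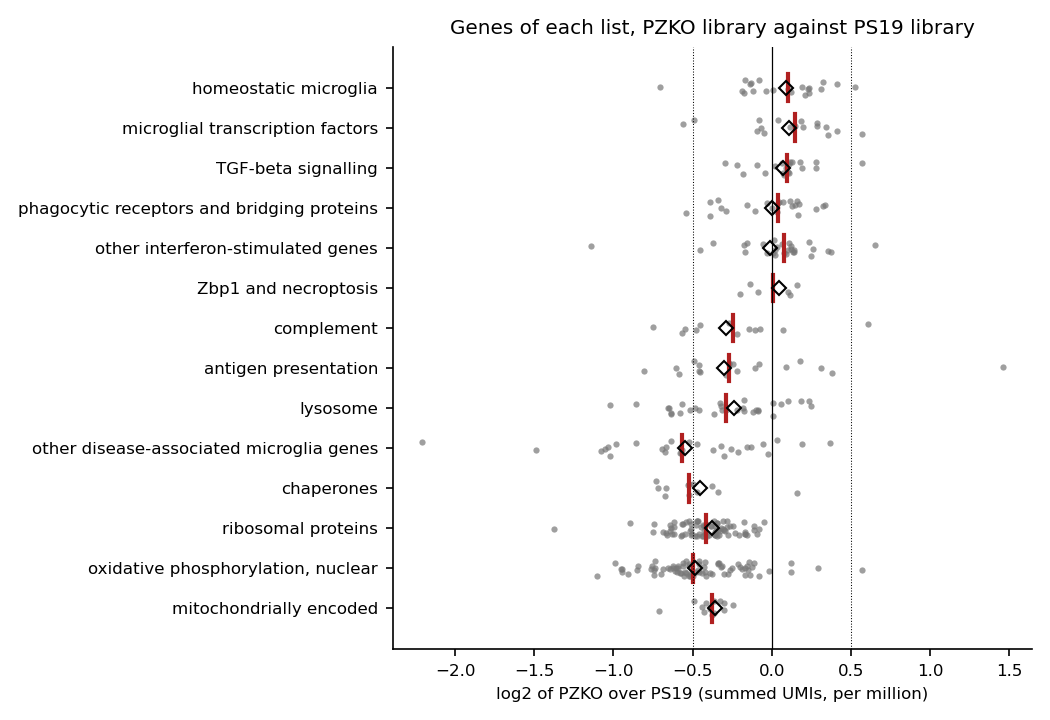
Log2 ratio of PZKO over PS19 in member nuclei for the genes of 14 lists (points), with the median of each list over all members (red bar) and without mixed nuclei (diamond); dotted lines mark ratios of 0.5 in either direction. The medians of the homeostatic, transcription factor and TGF-β lists lie between 0.09 and 0.15, while the further DAM genes (-0.57), ribosomal proteins (-0.42) and nuclear genes of oxidative phosphorylation (-0.50) lie below 0.

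Lysosomal genes leaned downwards. Of 31, 9 were past the fold downwards and 0 upwards, with a median of -0.29 (-0.33 outside the gate). *Ctsd* (chr7:142375911-142388038, minus strand), the protease cathepsin D whose promoter E-box is printed above, had 2772 UMIs in PS19 (828 CPM) and 1508 in PZKO (458 CPM), a ratio of -0.86 (-0.95 to -0.76) that was -0.85 outside. Of the other lysosomal genes with CACGTG, *Ctsa* stood at -0.65, *Lamp1* at -0.63 and *Ctsl* at -0.58, while *Gaa* (-0.18), *Ctsf* (-0.10), *Lgmn* (0.10) and *Glb1* (0.19) were closer to 0 or above it. *Cd68*, a lysosomal glycoprotein used to stain activated microglia, had 136 and 67.1 CPM (-1.02, -1.26 to -0.79). *Ctss*, the cathepsin that trims the class II invariant chain, was at -0.46 from 1095 and 794 CPM. *Tfeb*, the factor that drives lysosomal genes, was at 0.25 with an interval that includes 0 (-0.02 to 0.51).

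Complement genes were lower in the same way, with 3 of 12 past the fold downwards, 1 upwards and a median of -0.25 (-0.82 outside). This list includes the DAM gate gene *Itgax*, and without it the median over the other 11 genes was -0.22. *C1qa* and *C1qc* encode chains of C1q, which opens the classical pathway and tags synapses. *C1qa* had 2027 and 1184 UMIs (606 and 359 CPM), a ratio of -0.75 (-0.86 to -0.65), and *C1qc* was at -0.55, while outside the gate they were at -1.15 and -1.09. *C4b* was at -0.57 from 143 and 95 UMIs. The gene above the fold was *C5ar2*, a receptor for C5a, with 44 and 66 UMIs (0.61, 0.04 to 1.19). In the antigen presentation list 3 of 19 genes were past the fold downwards and 1 upwards, against 10.5% and 4.08% of all genes. The list median was -0.27 (-0.52 outside). *Cd74*, the invariant chain of class II, had 440 UMIs in 168 PS19 nuclei and 247 in 119 PZKO nuclei (-0.81, -1.04 to -0.58). The class II chain *H2-Aa* (88 and 57 UMIs, -0.60, but 0.044 as a mean over nuclei) and the class I chain *H2-D1* (758 and 496 UMIs, -0.59) were the others past the fold downwards. *Ciita*, the activator of class II transcription, had the opposite order with 17 and 46 UMIs (1.46, 0.63 to 2.35). *B2m*, the light chain of class I, was at -0.46 from 280 and 204 CPM.

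Genes of engulfment differed in both directions. The list of 23 phagocytic receptors and bridging proteins had a median of 0.04, with 1 gene past the fold downwards and 0 upwards, 3 intervals above 0 and 5 below. *Elmo1*, a partner of DOCK proteins in engulfment, had 1622 CPM in PS19 and 2028 CPM in PZKO (0.32, 0.27 to 0.37), the receptor kinase *Mertk* 1306 and 1470 CPM (0.17) and *Dock2* 1231 and 1377 CPM (0.16). The gene past the fold was the scavenger receptor *Msr1*, with 37 and 25 UMIs and an interval that includes 0 (-0.54, -1.34 to 0.23), and *Fcer1g*, the common Fc receptor chain, was at -0.39 (-0.57 to -0.22). The Fc receptors *Fcgr2b* (-0.32) and *Fcgr3* (-0.29) and the bridging protein *Gas6* (-0.34) also had intervals below 0. Among 36 genes of migration, adhesion and the cytoskeleton the median was 0.07, and 0.08 over 35 genes without the gate gene *Dock8*. *Srgap2*, which shapes membrane protrusions, had 1833 and 2213 CPM (0.27), *Plxdc2* 4204 and 4882 CPM (0.22), and *Itga9*, an integrin subunit, was the 1 gene past the fold, with 91.4 and 131 CPM (0.52, 0.31 to 0.74).

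Interferon-stimulated genes outside the gate had mostly small ratios, in nuclei chosen for few UMIs of related genes, and no difference was tested. Of 29, 1 was past the fold upwards and 1 downwards, 21 had a ratio above 0, and the median was 0.08 with all members and -0.01 without the mixed nuclei. The intervals of 5 genes lay above 0 and that of 1 below, and the list median in nuclei outside the microglial gate was 0.08. *Eif2ak2*, the double-stranded RNA kinase PKR, had 107 CPM in PS19 and 138 CPM in PZKO (0.37, 0.17 to 0.58). *Oas2*, a synthetase of oligoadenylates, had 44 and 68 UMIs (0.65, 0.08 to 1.23). *Ifitm3*, a membrane protein that blocks viral entry, had 101 and 45 UMIs and was lower in PZKO (-1.14, -1.68 to -0.62), as it was outside the gate (-0.71). *Trim30a* was at 0.12, with an interval that reaches 0. Of the gate genes *Isg15* had 10 and 22 UMIs and *Ifit3* 35 and 37 UMIs.

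In the list of *Zbp1* and necroptosis genes, those with enough UMIs did not differ beyond counting error. Of 10 genes in the list 6 had enough UMIs, none of these 6 was past the fold in either direction, and the median was 0.01. The rest of the list was too sparse to compare, so nothing is said here of those genes. *Ripk1*, the kinase that ZBP1 engages, had 218 UMIs in PS19 and 187 in PZKO (-0.20, -0.49 to 0.09). *Casp8*, the protease that restrains necroptosis, was at 0.11 (-0.09 to 0.32) and its regulator *Cflar* at 0.10. *Irf3* was at -0.14 (-0.43 to 0.15) and its kinase *Tbk1* at 0.16. At these UMI numbers, differences smaller than the intervals could not be seen. Pattern recognition receptors had a median of -0.13 over 19 genes, with 2 past the fold downwards, a share like the 10.5% over all genes. These 2 were the receptor *Tlr2* (134 and 87 UMIs, -0.60, -1.01 to -0.20) and the adaptor *Mavs* (107 and 69 UMIs, -0.61). That list includes the microglial gate gene *Ly86*, and without it the median over 18 genes was -0.17. In the list of cytokines and NF-κB genes, 27 were tested, 1 was past the fold upwards and 3 downwards, and the median was 0.05. These counts were also near the shares over all genes, 4.08% upwards and 10.5% downwards. *Il1b*, the inflammasome product interleukin-1β, had 55 UMIs in 17 PS19 nuclei and 14 UMIs in 11 PZKO nuclei (-1.95, -2.91 to -1.09), but 19 of the 55 came from 1 nucleus and without the top nucleus the ratio was -1.56. *Ccl12*, a chemokine, was at 0.47 (0.12 to 0.82), *Il10ra*, the receptor for interleukin-10, at 0.33 (0.18 to 0.47) and *Nfkb1* at 0.05. *Tnf*, with 49 and 30 UMIs, was at -0.69 (-1.39 to -0.00), and the chemokine *Cxcl16* was the third gene past the fold downwards, at -0.64. The gene past it upwards was *Nfkbie*, an inhibitor of NF-κB, with 24 and 39 UMIs and an interval that includes 0 (0.72, -0.05 to 1.52).

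Most genes of protein synthesis and respiration were lower in PZKO members. All 80 ribosomal protein genes tested had ratios below 0, 26 were past the fold downwards and 0 upwards, and the median was -0.42 (-0.53 outside the gate). *Rplp0*, of the ribosomal stalk, was at -0.90 from 77.4 and 41.6 CPM and *Rps29* at -0.05. Nuclear genes of oxidative phosphorylation had 38 of 77 past the fold downwards, 4 above 0 and 1 upwards (*Uqcc3*, an assembly factor, from 26 and 38 UMIs), with a median of -0.50 (-0.47 outside). *Ndufb2*, of complex I, had 83 and 38 UMIs (-1.10, -1.70 to -0.53) and *Cox7c*, of complex IV, was at -0.42. The 13 mitochondrially encoded genes were also all below 0, with a median of -0.38 (-0.78 outside the gate), *mt-Co1* at 1353 and 1140 CPM (-0.25) and *mt-Atp8* at -0.71. That median was -0.14 with a stricter filter on nuclei, -0.13 with the ambient profile subtracted and -0.24 with both gates at 0 UMIs. Chaperones had 7 of 12 past the fold downwards and a median of -0.52 (-0.57 outside). The constitutive chaperone *Hspa8* had 167 and 101 CPM (-0.72, -0.92 to -0.52), *Hsp90ab1* was at -0.53, *Hsph1* at -0.73 and their regulator *Hsf1* at 0.16. The 14 long noncoding RNAs retained in the nucleus had a median of 0.09, with 0 past the fold. *Malat1*, the most abundant nuclear RNA, was at -0.21 from 173510 and 147407 UMIs, and *Gm42418* at 0.09.

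Cycling nuclei were few and mostly in PS19. Of 9 cell cycle genes tested, 7 were past the fold downwards and 0 upwards, with a median of -0.86 (-1.17 without the mixed nuclei, -1.19 without putative doublets called by Scrublet and -2.04 with a neuronal limit of 10 per 10000 UMIs). *Top2a* (chr11:98992943-99024189), the topoisomerase of dividing cells, had 96 UMIs in 10 PS19 nuclei and 19 UMIs in 5 PZKO nuclei (-2.31, -3.11 to -1.59). *Cenpf*, of the kinetochore, had 46 and 11 UMIs (-2.04), and *Ezh2*, a histone methyltransferase, 152 and 97 UMIs (-0.63). Counted per nucleus, 7 of 892 PS19 members and 1 of 691 PZKO members had at least 10 UMIs of 10 mitosis genes, and those 7 nuclei held 246 of the 324 such UMIs in PS19. As shares these are 0.785% (0.316% to 1.61%) and 0.145% (0.0037% to 0.804%), which overlap. With a limit of 3 UMIs, 10 PS19 and 3 PZKO members passed, at 1.12% (0.539% to 2.05%) and 0.434% (0.0896% to 1.26%).

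Further lists had medians between -0.17 and 0.13. Purinergic receptors and ion channels stood at -0.03 over 22 genes, with the inward rectifier *Kcnj2* lower (124 and 78.9 CPM, -0.65, -0.88 to -0.42) and the proton channel *Hvcn1* higher in PZKO (127 and 179 UMIs, 0.52, 0.18 to 0.86). Lipid and cholesterol handling stood at 0.01 over 28 genes, with *Soat1*, which esterifies cholesterol, at -0.54 (-0.72 to -0.37) and *Hpgds*, a prostaglandin synthase, at 0.25. Besides *Apoe* and *Soat1*, the only lipid gene past the fold was *Pparg*, a nuclear receptor for fatty acids, with 35 and 62 UMIs (0.85, 0.23 to 1.49), but 17 and 14 UMIs without the mixed nuclei (-0.24). Mouse counterparts of Alzheimer risk genes stood at 0.13 over 27 genes, and at 0.09 over 26 genes without the gate gene *Inpp5d*. Past the fold downwards were 4 of these 27 (10.5% over all genes), *Apoe*, *Ms4a6c* (-0.75), the lysosomal precursor gene *Grn* (-0.66) and *Ets2* (52 and 36 UMIs, -0.51, -1.16 to 0.13, but 0.64 after thinning). *Abi3*, an actin regulator, was at 0.39 (0.23 to 0.54). Core clock genes were at -0.05 over 16 genes, with *Nr1d1* (-0.86) and *Cry1* (-0.53), both repressors, and the activator *Npas2* (82 and 120 UMIs, 0.57, 0.15 to 1.0) past the fold. Only 10 and 8 *Npas2* UMIs remained without the mixed nuclei, with a ratio of -0.29 (-1.83 to 1.21), and the median of the clock list was then -0.26. Glucocorticoid-responsive genes were at -0.07 over 10 genes with 0 past the fold, and immediate early genes at -0.17 over 13 genes (-0.04 without the mixed nuclei and -0.05 without Scrublet doublets), with *Ier2*, *Ier5* and *Zfp36* past it downwards (-0.70, -0.66 and -0.55).

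The genes farthest apart between the genotypes, ordered by whichever end of the interval lay closer to 0, were largely not genes of microglia. At the low end stood *Atp13a5*, a transporter typical of pericytes (109 UMIs in 16 PS19 nuclei and 4 UMIs in 4 PZKO nuclei, -4.75, -6.65 to -3.35), and *Ttr* (2637 and 317 UMIs, -3.03, against -2.77 outside the gate). With putative doublets removed by Scrublet, *Atp13a5* was left with 11 and 3 UMIs and a ratio of -1.88. *Spp1* and *Top2a* followed. *Reln*, secreted by interneurons, had 411 and 111 UMIs, of which 107 lay in 1 PS19 nucleus, and *Zfp804b* had 574 and 185 UMIs, 383 of them in 1 PS19 nucleus. With mixed nuclei left out the ratio of *Reln* was -1.0, but with Scrublet doublets removed it was 0.41. Without the mixed nuclei the ratio of *Zfp804b* was 1.62 and that of *Il1rapl2* 0.93, against -1.61 and -1.76 with them. At the high end, the potassium channel gene *Kcnh5* had 19 and 148 UMIs (2.98), but 4 and 7 UMIs without the mixed nuclei (0.84). *Sorcs1* stood at 1.61 with them and at -1.13 without. *Tenm2*, a neuronal adhesion protein, kept a like ratio on fewer UMIs (1619 and 3357 UMIs, 1.07, and 83 and 162 UMIs, 1.0), and *Robo1*, a guidance receptor, stood at 1.12 and at 1.42. *Il7r*, the interleukin-7 receptor chain, had 36 and 94 UMIs (1.41) and stood at 0.82 without them.

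**Figure D3:**
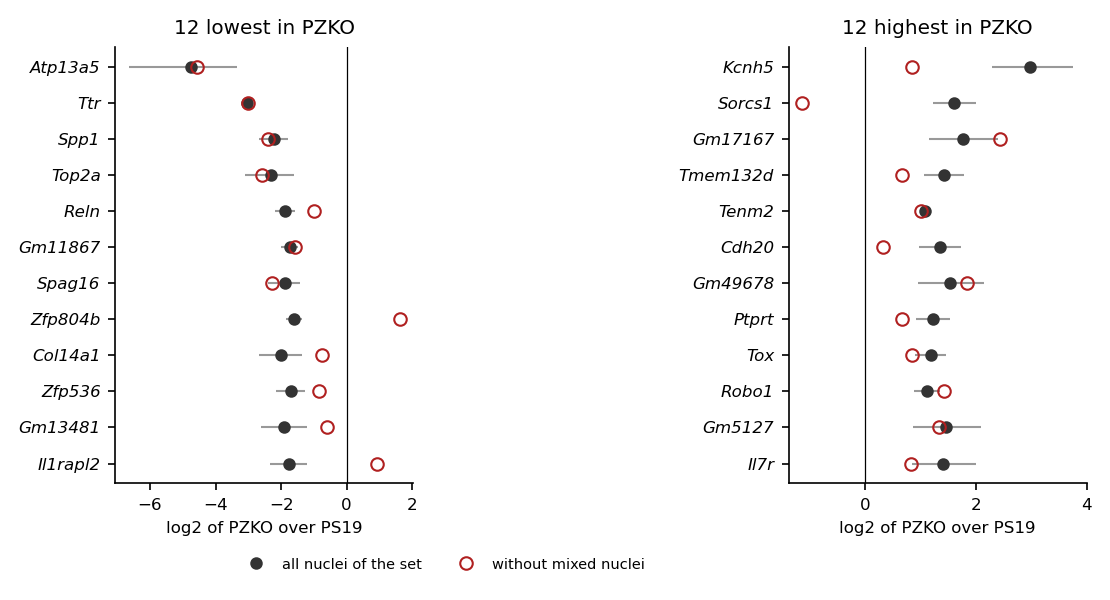
Log2 ratio of PZKO over PS19 for the 12 lowest and 12 highest genes in member nuclei, with 95% counting intervals (black, all members) and the ratio without mixed nuclei (red, open). *Zfp804b*, *Il1rapl2* and *Sorcs1* lie on the other side of 0 without the mixed nuclei, while *Ttr* (-3.01) and *Spp1* (-2.39) stay close to their values.

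With the mixed nuclei left out, the low end held *Htr2c*, the serotonin receptor of the choroid plexus (126 and 17 UMIs, -2.85, but 0.80 and 0.91 under a stricter neuronal or microglial limit applied on its own), *Lhfpl3*, of oligodendrocyte precursors (-2.13, but 0.74 with Scrublet doublets removed), the choroid plexus gene *Enpp2* (-1.69) and the metallothionein *Mt2* (173 and 60 UMIs, -1.49). The high end held *Dach1*, a transcriptional cofactor (38 and 115 UMIs, 1.63), *Tspan18*, a tetraspanin (58 and 130 UMIs, 1.20), and *Setbp1* (65 and 142 UMIs, 1.16).

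Within the members, the levels of some homeostatic and DAM genes differed with the number of DAM gate UMIs even below the limit. The gate chose these bins by raw UMIs, so they also grade in depth, from a median of 2846 UMIs per nucleus at 0 gate UMIs to 4059 at 2 in PS19 and from 3662 to 5344 in PZKO. Microglia above the interferon limit were left out of all bins, so the bin of 3 or more held 150 PS19 and 105 PZKO nuclei. *P2ry12* in PS19 was at 736, 575 and 414 CPM with 0, 1 and 2 gate UMIs, and at 411 CPM in those with 3 or more. In PZKO it was at 864, 626, 477 and 369 CPM in the same order. In PS19 the last 2 bins did not differ beyond counting error. *Siglech* showed the same order, at 427, 294, 215 and 182 CPM in PS19 and 486, 302, 262 and 147 CPM in PZKO. *Tmem119* went from 59.7 CPM at 0 to 22.8 CPM at 3 or more in PS19 and from 79.7 to 13.6 CPM in PZKO. Other homeostatic genes did not all follow this order. *Tgfbr1* in PS19 was at 2250, 2355, 2301 and 2913 CPM, and *Selplg* in PZKO was at 391, 194, 237 and 113 CPM. Of the gate genes, *Cx3cr1* in PS19 was at 775, 769, 776 and 758 CPM and *Csf1r* at 651, 571, 606 and 559 CPM.

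Across the same bins, DAM and lysosomal genes with low ratios in the members differed between the libraries. *Apoe* in PS19 was at 1751, 2573, 3721 and 5973 CPM, each bin above the one before. In PZKO it was at 895, 1505, 1210 and 1471 CPM, so that the PZKO bin with the most gate UMIs stood below the PS19 bin with none. *Spp1* was at 45.9, 92.3, 194 and 405 CPM in PS19 and at 11.1, 27.4, 28.8 and 84.1 CPM in PZKO. *Ctsd* was at 671, 931, 1408 and 1718 CPM in PS19, against 433, 535, 481 and 544 CPM in PZKO. Without the mixed nuclei *Ctsd* was at 798, 1149, 1659 and 1690 CPM in PS19 and at 496, 641, 657 and 740 CPM in PZKO. Without the mixed nuclei the order stayed for *Apoe* in PS19 (1988, 3087, 4546 and 5887 CPM), and in PZKO its last bin reached 2011 CPM, just above the 1988 CPM of PS19 nuclei with none. *Ctsb*, another cathepsin gene, was at 545, 677, 862 and 1192 CPM in PS19 and 372, 536, 490 and 527 CPM in PZKO, and *Lyz2* at 87.8, 118, 179 and 548 CPM in PS19 and 34.5, 46.3, 44.3 and 106 CPM in PZKO, so both were lower in PZKO in every bin. For some other DAM genes the order of the libraries depended on the bin. With 0 gate UMIs *Axl* was at 114 CPM in PS19 and 117 CPM in PZKO, and with 1 gate UMI *Lpl* (167 and 213 CPM) and *Csf1* (177 and 266 CPM) were higher in PZKO. With 3 or more, all 3 were lower in PZKO, at 306 and 215 CPM for *Axl*, 364 and 194 CPM for *Lpl* and 397 and 223 CPM for *Csf1*. Without the mixed nuclei these gaps were smaller, at 360 and 288 CPM for *Lpl* and 396 and 314 CPM for *Csf1*. *Axl* was then nearly level, at 306 and 299 CPM. *Trem2* was at 212, 263, 259 and 400 CPM in PS19 and 201, 235, 204 and 198 CPM in PZKO. Its intervals overlapped in the bins of 0, 1 and 2 gate UMIs, which hold the members, and were apart only at 3 or more. Without the mixed nuclei that last gap was smaller, at 394 and 278 CPM. *Cadm1* was higher in PZKO in every bin, but with overlapping intervals at 3 or more. Among the members with 0 gate UMIs, 593 in PS19 and 518 in PZKO, *Apoe*, *Ctsd* and *Spp1* were already lower in PZKO.

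**Figure D4:**
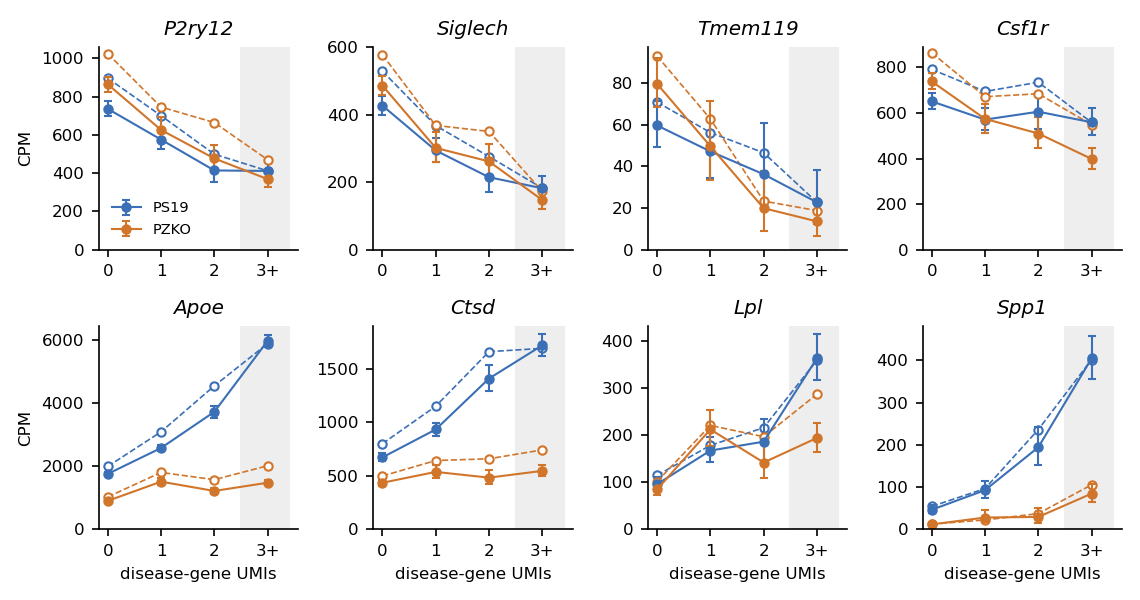
Level in CPM of 8 genes in microglia with 0, 1, 2 and 3 or more UMIs of the DAM gate genes, for PS19 (blue) and PZKO (orange), with exact 95% Poisson intervals (solid, all nuclei) and without mixed nuclei (dashed, open). The grey band holds the disease-associated microglia that were below the interferon limit. *P2ry12* is lower in each bin with more gate UMIs in PZKO, and in PS19 up to 2 gate UMIs, where the last 2 bins are level within counting error. *Apoe* reaches 5973 CPM in PS19 and 1471 CPM in PZKO in the last bin.

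Set against the disease-associated microglia of its own library, each set of members was higher in most homeostatic genes. The counts over all genes left out every gate gene, but the 2 sets were split on the correlated gate genes of the same nuclei, so it describes the split and tests nothing. Of 9387 genes, 3.79% were past the fold higher and 2.99% lower in members in both libraries, and with intervals clear of 0 in both, 257 were higher and 363 lower (377 and 404 without the mixed nuclei). In nuclei without the mixed ones, the log2 ratio of members over disease-associated microglia for *P2ry12* was 0.94 in PS19 (0.75 to 1.12) and 0.98 in PZKO (0.79 to 1.16). *Siglech* stood at 1.28 and 1.57, *Tmem119* at 1.38 and 2.19, *Selplg* at 1.19 and 1.30 and *Sall1* at 0.79 and 0.74. *Cx3cr1* and *Csf1r*, which are microglial gate genes and given as description, differed less, at 0.31 and 0.53 and at 0.41 and 0.57. Over the lists, the homeostatic median without these 2 gate genes was 0.46 in PS19 and 0.98 in PZKO (0.32 and 1.03 with the mixed nuclei), and that of the further DAM genes was -0.81 and -0.71 (-1.04 and -0.47 with them).

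Genes lowest in members against disease-associated microglia, in the order of the weaker interval end of both libraries, were led by *Atp6v0d2*, a subunit of the proton pump. It had 59 UMIs in the 892 PS19 members and 185 in the 157 disease-associated nuclei (17.6 and 284 CPM, -4.01), and 8.50 and 162 CPM in PZKO (-4.25). *Mamdc2* stood at -3.65 and -3.14, *Myof*, a membrane repair protein, at -2.63 and -2.76, *Ms4a7* at -2.33 and -3.01 and the scavenger receptor *Colec12* at -2.39 and -2.10. Without the mixed nuclei *Spp1* stood at -2.14 and -2.56, *Lyz2* at -2.07 and -1.74, *Lpl* at -1.35 and -1.01, *Apoe* at -1.14 and -0.71 and *Ctsd* at -0.77 and -0.43. *Trem2* was at -0.49 in PS19 and -0.04 in PZKO. The genes highest in members were led by *Skap1*, a T cell adaptor, and *Mecom*, each with 0 UMIs in disease-associated microglia of PS19 and 1 in those of PZKO. *Skap1* had 154 and 188 UMIs in the members, in 22 and 24 nuclei, but only 0 and 2 UMIs remained without the mixed nuclei, which were chosen in part by this gene.

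**Figure D5:**
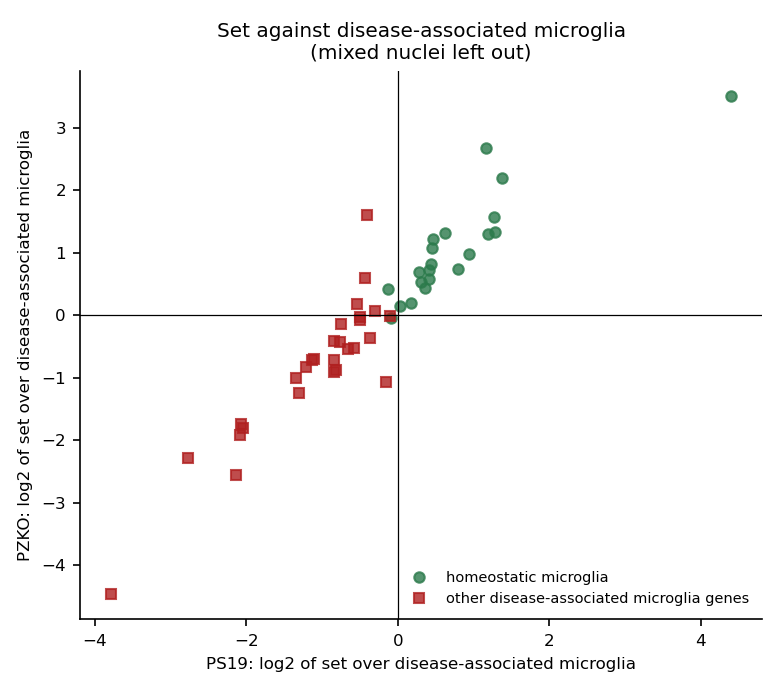
Log2 ratio of member nuclei over disease-associated microglia in PS19 (horizontal) and in PZKO (vertical), mixed nuclei left out, with homeostatic genes in green and further DAM genes as red squares. Most homeostatic genes lie above 0 in both libraries (*P2ry12* at 0.94 and 0.98) and most DAM genes below 0 (*Spp1* at -2.14 and -2.56).

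Against the 24 PS19 and 45 PZKO interferon-responsive microglia, members were lower in interferon-stimulated genes outside the gate. These sets were also split on correlated gate genes of the same nuclei, so the comparison describes the split and tests nothing. In nuclei without the mixed ones, the list median was -1.53 in PS19 and -2.67 in PZKO, and the single values that follow are of the same nuclei. *Ifi211*, a nucleic acid sensor of the HIN-200 family with the element printed above, stood at -3.43 and -4.89, its relative *Ifi213* at -2.90 and -4.05, the interferon regulator *Irf7* at -3.47 and -3.88, the ISG15 protease *Usp18* at -2.70 and -3.51 and *Herc6* at -2.33 and -2.80. The cytokine gene *Tnf* was also lower in members, at -4.74 and -4.12, and the chemokine *Ccl4* at -2.89 and -2.23. Across 8889 genes, 209 were higher and 187 lower in members with both intervals clear of 0, and 101 and 139 without the mixed nuclei. The highest were neuronal genes. *Dpp10*, a partner of potassium channels, stood at 5.48 in PS19 and 4.91 in PZKO with all nuclei and at 0.65 and 0.48 once mixed nuclei were left out, and *Meg3*, a neuronal long noncoding RNA, at 2.40 and 3.17 and then at 0.35 and -0.16.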

How the data were processed

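Nuclei from pooled hippocampi were counted with Cell Ranger on mm10, version 7.0.1 per the labels and 8.0.1 per the matrix headers. The authors deposited raw UMI counts per gene and nucleus, without the ambient RNA correction, doublet removal and integration described in the methods. No doublet was removed here except under an alternative (Scrublet in scanpy 1.11.5, the top 0.8% per 1000 nuclei), and 0 per-sample columns were left unused. UMIs were summed over nuclei of a library, scaled to CPM, and compared as a log2 ratio with an exact conditional binomial 95% interval. Shares have exact Clopper-Pearson intervals. With 1 library per genotype nothing was tested between genotypes. The interval was also run on simulated sums drawn from a Poisson model, which holds counting error only. That run checks the code, and cannot show how the interval performs where UMIs cluster in single nuclei or differ between animals. Alternatives covered scaling by edgeR 4.0.16 (TMM) or by DESeq2 1.42.0, thinning, gates, minimum counts, doublets and ambient subtraction. Named genes were the markers, gate genes and *Zbp1*, the 12 lowest and 12 highest genes with at least 100 UMIs, up to 2 lowest, 2 highest and 2 most abundant genes of each list, and the leading genes against the other microglia. Further genes that complete a count or a group were named after their values were seen. Members and the 38 gene lists were chosen with earlier results of these data known. Gene positions are those of GENCODE M21, and promoters those of RefSeq. The values of some single genes are not reported here, while list medians and counts include them.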

Additional observations from a re-analysis of the deposited data

Results flagged for a closer look

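For 3 genes, the log2 ratio of PZKO over PS19 was past 0.5 in opposite directions in member nuclei and in nuclei outside the microglial gate, each with a counting interval clear of 0, and the difference was not tested because each genotype had 1 library. *Hvcn1*, the proton channel of phagocytes, was at 0.52 in members and -0.71 outside. *Gm5127* was at 1.47 in members and -0.80 outside, with 36 of its 87 PZKO UMIs in 1 nucleus, and with Scrublet doublets removed it was at -1.11 in members, the direction seen outside. *Il1rapl2* was at -1.76 in members and 0.52 outside, with 48 of its 124 PS19 UMIs in 1 nucleus, and without the mixed nuclei it was at 0.93 in members, again the direction seen outside.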

How the results depend on the processing

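No paired analysis was possible because each genotype had 1 library, and leaving out a replicate was not possible for the same reason. Depth limits genes with few UMIs, and transcripts from other cells limit genes abundant there. The share behind the ambient subtraction was 33.8% in PS19 and 35.9% in PZKO. It was the median level of 13 neuronal, choroid plexus and ependymal markers in members, relative to all deposited barcodes. No empty droplets were used and mixed nuclei were kept, so it also counts their transcripts and is not a measure of ambient RNA alone. Over the alternatives the medians of the lists ranged from -0.68 to -0.42 for further DAM genes, from 0.00 to 0.16 for homeostatic genes, from -0.48 to -0.29 for ribosomal proteins, from -0.52 to -0.40 for oxidative phosphorylation and from -0.31 to -0.21 for lysosomal genes. The homeostatic median was 0.16 with TMM scaling and 0.15 with DESeq2 size factors, and that of the microglia markers 0.025 with a microglial limit of 20. The cell cycle median was -2.04 with a neuronal limit of 10, -1.53 with the ambient profile subtracted and -1.64 with no minimum count. The mitochondrially encoded median was -0.14 with a stricter filter, -0.54 with the neuronal limit, -0.24 with both gates at 0 UMIs and -0.13 with the ambient profile subtracted. Genes past the fold upwards numbered 815 with a microglial limit of 20. With a minimum of 20 UMIs, 200 UMIs or 1 UMI per library, 840, 144 and 2024 genes were higher and 2007, 305 and 3710 lower, as more or fewer genes were counted, and with a fold of 1 there were 57 and 186. Thinning left 722 lower. Genes higher than in interferon-responsive microglia numbered 101 without the mixed nuclei.

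The share of microglia that were members, in PS19 and PZKO, was 59.2% and 55.1% with the neuronal limit of 10, 49.0% and 51.2% with both gates at 0 UMIs, 93.6% and 92.0% with both under 6, 88.5% and 87.0% after ambient subtraction and 90.4% and 91.3% after thinning. As shares of all nuclei these were 6.03% and 4.57% with the neuronal limit, 4.99% and 4.26% with gates at 0, 9.54% and 7.64% with gates under 6, 9.25% and 7.53% after ambient subtraction and 7.63% and 6.12% without mixed nuclei. A microglial limit of 20 gave 7.79% in PS19, and the stricter filter 6.17% in PZKO. Single ratios changed sign as follows, and the cause was not tested. With Scrublet doublets removed they were 0.44 for *Gm13481*, -1.11 for *Gm5127*, 0.91 for *Il1rapl2*, 0.74 for *Lhfpl3*, 0.41 for *Reln*, -0.63 for *Sorcs1*, -0.039 for *Tox*, -0.65 for *Npas2*, -0.52 for *Pparg*, 1.32 for *Zfp804b* and 0.84 for the median of the oligodendrocyte precursor markers. With the neuronal limit they were 0.80 for *Htr2c*, 1.69 for *Il1rapl2*, -0.77 for *Npas2*, -0.015 for *Pparg* and -1.71 for *Sorcs1*. With the microglial limit of 20 they were 0.91 for *Htr2c*, 0.37 for *Il1rapl2* and 0.42 for *Zfp804b*. Leaving out mixed nuclei gave 0.93 for *Il1rapl2*, -0.29 for *Npas2*, -0.24 for *Pparg*, -1.13 for *Sorcs1* and 1.62 for *Zfp804b*. With both gates at 0 UMIs *Msr1* was at 0.65, and as a mean over nuclei *H2-Aa* was at 0.044 and *Pparg* at -0.13. After thinning *Pparg* was at -0.16, *Ets2* at 0.64 and *Zbp1* at 0.35.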
